A study of Homo sapiens with 38 samples.

Results

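The 10 genes described here belong to the YAP pathway and were chosen by symbol, as a readout of how densely the cells of each library may have grown. They are YAP1, WWTR1, TEAD1, CTGF, CYR61, ANKRD1, AXL, LATS2, AMOTL1 and AMOTL2. All 10 were found among 25504 uniquely named genes, and 8 of them were among the 10865 genes called expressed, those whose FPKM averaged 1 or more. ANKRD1 and AMOTL1 were below that level. CTGF passed it narrowly, with a mean FPKM of 1.03, and would not have passed without its highest library, NCD38 on day 30 (2.47 FPKM).

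The RNA came from RKO, an established line of human colorectal cancer cells, grown in medium with 10% serum and 0.1% DMSO in every condition. Cells received DMSO alone, NCD38, NCD38-β2P4 or NCD38-β2PIPP, and were collected on day 4 or on day 30, with 1 library for each of the 8 conditions. NCD38 is an inhibitor of the histone demethylase LSD1, and the conjugates carry NCD38 joined to a polyamide made of pyrrole units (P4) or of pyrrole units with an imidazole (PIPP). The dose was 2 μM by the labels, although the study's methods give 2 mM for day 4. The methods describe fresh medium every 5 days, with passage when needed, for the 30-day treatment. On that schedule the cells of day 4 were collected before a first refresh. Cell numbers or confluence at RNA collection are not given in the sources used here.

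YAP1 and WWTR1, which encodes TAZ, are transcriptional co-activators that have no DNA-binding domain and act through the TEAD factors. In sparse cultures they are largely nuclear and their target genes are high, whereas in crowded cultures the Hippo kinases, LATS2 among them, phosphorylate them and hold them in the cytoplasm. CTGF, CYR61 and ANKRD1 are the targets most used to read their activity, and LATS2 and AMOTL2 are both targets and inhibitors of the pathway.

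Values are FPKM, fragments per kilobase of transcript scaled to the mapped fragments of the library, as deposited. The table holds no counts, and depth estimated from the FPKM of single fragments was between 12485900 and 22850700 fragments per library. The 95% intervals of ratios given below come from that estimate and cover counting error only. No condition has a replicate. Among markers of colon epithelium, 4 of 10 had a mean FPKM of at least 1 (EPCAM, KRT8, KRT18 and CDX2), KRT19 and CDH1 averaged below 1, and KRT20, VIL1, CDX1 and LGR5 were listed at 0 in every library. The summed level of 6 fibroblast markers was at most 0.0270, that of 3 endothelial markers at most 0.0152, and the immune markers PTPRC and CD3E were listed at 0 in every library. CD68, a further immune marker and a lysosomal protein gene, was at 201 to 251 FPKM on day 30 and 633 to 763 on day 4, and its part in the differences between days was not tested.

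TEAD factors recognise the letters CATTCC, read GGAATG on the other strand, and the promoters of the members were searched for them on both strands, from 250 bases before to 50 bases after the gene start (RefSeq, GRCh38.p14). A promoter entry was found for 8 of the 10 members, and none for TEAD1 and CYR61. Of their 11 entries, 6 held a match, belonging to 6 members, and the share among all 35116 promoters was 14%. The promoter of CTGF held 3 matches, beginning at positions -169, -104 and -95 from the gene start, and 3 or more were present in 45 promoters (0.128%). The 250 bases before the gene start are shown for CTGF and ANKRD1, which had the most matches among the members, with the matches in capitals.
CTGF, chr6:131951373-131951622, minus strand: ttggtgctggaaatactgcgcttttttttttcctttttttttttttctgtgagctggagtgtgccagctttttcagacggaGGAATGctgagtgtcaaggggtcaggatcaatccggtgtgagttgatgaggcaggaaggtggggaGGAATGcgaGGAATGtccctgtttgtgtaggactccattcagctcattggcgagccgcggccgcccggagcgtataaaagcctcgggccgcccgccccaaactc
ANKRD1, chr10:90921088-90921337, minus strand: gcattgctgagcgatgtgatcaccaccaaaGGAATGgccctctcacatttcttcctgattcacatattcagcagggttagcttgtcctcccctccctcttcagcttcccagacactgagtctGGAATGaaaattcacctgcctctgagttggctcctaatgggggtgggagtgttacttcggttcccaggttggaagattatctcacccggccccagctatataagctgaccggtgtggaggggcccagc
Shorter windows of 30 bases show the single match of each of the other members, again in capitals.
YAP1, chr11:102110273-102110302, plus strand: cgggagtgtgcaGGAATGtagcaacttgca
AXL, chr19:41226531-41226560, plus strand: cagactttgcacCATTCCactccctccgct
AMOTL2, chr3:134374499-134374528, minus strand: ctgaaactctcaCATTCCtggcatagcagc
LATS2, chr13:21061560-21061589, minus strand: cgtgacgcccgtGGAATGccaacaatgtag
WWTR1 and AMOTL1 had no match in these windows, and neither did 1 of the 2 entries of AXL and of AMOTL2. The AP-1 letters TGANTCA, a palindrome apart from its middle base, were present in the ANKRD1 entry alone among the members and in 7.71% of all promoters. A match to these letters is a description of the sequence and does not show that a factor binds there.

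On day 30, the CTGF level was 0.444 FPKM with DMSO, 2.47 under NCD38, 0.522 under NCD38-β2P4 and 0.568 under NCD38-β2PIPP. On day 4, it was 1.24 with DMSO, 0.261 under NCD38, 1.19 under NCD38-β2P4 and 1.57 under NCD38-β2PIPP. CTGF, which encodes a secreted matricellular protein (chr6:132269316-132272512 on GRCh37, minus strand), was thus highest under NCD38 on day 30 and lowest under NCD38 on day 4. The NCD38 level was 5.56 times that of same-day DMSO on day 30 (95% counting interval, 3.39 to 9.66) and 0.210 times on day 4 (0.0852 to 0.441). These ratios rest on an estimated 97.8 against 19 fragments on day 30 and 8.14 against 51.3 fragments on day 4. With either conjugate the interval of the ratio included 1 on both days, the widest being 0.548 to 2.41 under NCD38-β2P4 on day 30.

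CYR61, a matricellular relative of CTGF (chr1:86046444-86050272 on GRCh37, plus strand), was among the more abundant members and shared the direction of CTGF under NCD38. Its level on day 30 was 99.1 FPKM with DMSO, 151 under NCD38, 87.8 under NCD38-β2P4 and 103 under NCD38-β2PIPP. On day 4, the values were 51.8, 37, 58.2 and 59.0 in the same order. Against same-day DMSO, NCD38 gave a CYR61 ratio of 1.53 on day 30 (1.47 to 1.59) and of 0.714 on day 4 (0.664 to 0.769). For the conjugates the ratio lay between 0.886 and 1.14 on both days. After the mean of each day was subtracted, log2(FPKM + 1) of CTGF and CYR61 had a Pearson correlation of 0.956 over the 8 libraries, a description over few points that share libraries and depth. By the same measure the 3 expressed genes most like CTGF were F11R (0.993), AURKA (0.991) and KIAA0284 (0.989), and those most like CYR61 were TFAP2A (0.993), SRPR (0.988) and LOC100507347 (0.982). AURKA, which encodes a mitotic kinase, was at 17.0 FPKM with DMSO and 39.1 under NCD38 on day 30, and at 36.6 with DMSO and 22.9 under NCD38 on day 4.

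ANKRD1, an ankyrin repeat protein that responds to stretch in muscle, was near the limit of detection. On day 30 it was listed at 0.341 FPKM under NCD38, 0.125 under NCD38-β2P4, 0.0572 with DMSO and 0 under NCD38-β2PIPP, and it was listed at 0 in all 4 libraries of day 4. The highest of these corresponds to an estimated 10.4 fragments and that of DMSO to 1.88, so that the ratio of NCD38 to DMSO on day 30, 5.97, has an interval from 1.15 to 50.7. A count of 0 allows up to 3 fragments, so expression of ANKRD1 on day 4 was not detectable at this depth.

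AXL, a receptor tyrosine kinase (chr19:41725128-41767671 on GRCh37, plus strand), differed little between treatments and strongly between days. On day 30, it was at 45.1 FPKM with DMSO, 57.6 under NCD38, 49.2 under NCD38-β2P4 and 47.0 under NCD38-β2PIPP. On day 4, the values were 200 with DMSO, 187 under NCD38, 205 under NCD38-β2P4 and 202 under NCD38-β2PIPP. The highest library of a day was 1.28 times the lowest on day 30 and 1.09 times on day 4, whereas the mean of day 4 was 3.99 times that of day 30.

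The co-activators and their partner were measured in the same libraries. YAP1 (chr11:101981178-102104155 on GRCh37, plus strand) was at 8.35 FPKM with DMSO, 10.8 under NCD38, 9.20 under NCD38-β2P4 and 6.54 under NCD38-β2PIPP on day 30. On day 4, it was at 4.44, 2.23, 7.45 and 11.7 in the same order, so that the highest library was 5.27 times the lowest, against 1.64 times on day 30. The YAP1 ratio to same-day DMSO on day 4 was 0.502 under NCD38 (0.414 to 0.601), 1.68 under NCD38-β2P4 (1.47 to 1.91) and 2.64 under NCD38-β2PIPP (2.35 to 2.97).

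TEAD1, a DNA-binding factor through which both co-activators act (chr11:12695968-12966284 on GRCh37, plus strand), had a wider spread. It was at 2.92 FPKM with DMSO, 4.28 under NCD38, 3.82 under NCD38-β2P4 and 2.56 under NCD38-β2PIPP on day 30. On day 4, the values were 0.840, 0.470, 1.75 and 4.11. The order of the treatments was that of YAP1 on both days. Under NCD38-β2PIPP on day 4, TEAD1 was 4.89 times the DMSO level (4.05 to 5.92), the largest ratio among the expressed members on that day.

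WWTR1 (chr3:149235022-149454501 on GRCh37, minus strand) varied less. Its level was 4.58 FPKM with DMSO, 5.41 under NCD38, 4.85 under NCD38-β2P4 and 3.62 under NCD38-β2PIPP on day 30, and 5.48, 5.84, 7.25 and 7.45 on day 4. All 4 values of day 4 lay above those of day 30. WWTR1 was the 1 expressed member that was not lower under NCD38 on day 4, with a ratio of 1.07 (0.93 to 1.22).

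Of the inhibitors of the pathway, LATS2 and AMOTL2 lay on the same side of DMSO as CTGF and CYR61 under NCD38. LATS2, the kinase that phosphorylates both co-activators (chr13:21547175-21635725 on GRCh37, minus strand), was at 2.63 FPKM with DMSO, 3.94 under NCD38, 3.15 under NCD38-β2P4 and 2.68 under NCD38-β2PIPP on day 30. On day 4, it was at 3.0, 1.54, 4.17 and 5.28. LATS2 was thus 1.5 times the DMSO level under NCD38 on day 30 (1.28 to 1.77) and 0.515 times on day 4 (0.410 to 0.640), and 1.76 times under NCD38-β2PIPP on day 4 (1.51 to 2.05).

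AMOTL2, an angiomotin family protein that tethers the co-activators at cell junctions (chr3:134074189-134094321 on GRCh37, minus strand), was higher on day 4 in every treatment. Its level on day 30 was 4.25 FPKM with DMSO, 5.52 under NCD38, 4.44 under NCD38-β2P4 and 3.64 under NCD38-β2PIPP. On day 4, the level was 12.8, 7.83, 12.4 and 14.4 in the same order. The AMOTL2 ratio of NCD38 to same-day DMSO was 1.30 on day 30 (1.13 to 1.49) and 0.609 on day 4 (0.547 to 0.677). AMOTL1, of the same family, was between 0.0778 and 0.150 FPKM on day 30 and between 0.00794 and 0.0522 on day 4, with at most an estimated 24.6 fragments in a library. Its ratio of NCD38 to DMSO on day 30 was 0.710, with a counting interval from 0.345 to 1.35.

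Relative to DMSO on the same day, all 8 expressed members were higher under NCD38 on day 30, and 7 of the 8 were lower on day 4. Of all expressed genes, 59.0% were higher under NCD38 on day 30 and 67.3% were lower on day 4. The combination of higher on day 30 and lower on day 4 was found for 7 of 8 members and for 43.7% of all expressed genes. The threshold was a 2-fold difference on the log2(FPKM + 1) scale, which understates the change of genes with low FPKM. CTGF alone passed it on day 30, where 1.0% of expressed genes were 2-fold higher. Without the NCD38 library of day 30, CTGF would average below 1 FPKM. Its pass here and its place among the 8 thus depend on the value compared. On day 4, none of the 8 was 2-fold lower, against 4.54% of expressed genes. These differences have no replicate, and with 1 library a condition no test between NCD38 and DMSO can be made within a day.

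NCD38-β2P4 gave no member past 2-fold on either day, with 1.0% of expressed genes past it in either direction on day 30 and 1.91% on day 4. On day 30, 7 of 8 members were higher than DMSO under NCD38-β2P4 (62.1% of expressed genes), and on day 4, 6 of 8 (65.0%). Under NCD38-β2PIPP on day 30, none passed 2-fold (1.17% of expressed genes in either direction), and 4 of 8 were higher (46.2%). Under NCD38-β2PIPP on day 4, all 8 were higher (63.6%), and YAP1 and TEAD1 were 2-fold higher, with log2 ratios of 1.23 and 1.47, where 10.3% of expressed genes were. AXL and AMOTL2 were the expressed members nearest to DMSO in that library, with FPKM ratios of 1.01 (0.987 to 1.03) and 1.12 (1.03 to 1.22). CYR61 and CTGF came next, at 1.14 (1.07 to 1.21) and 1.27 (0.851 to 1.92), whereas LATS2, also a target, was at 1.76 (1.51 to 2.05).

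**Figure D1:**
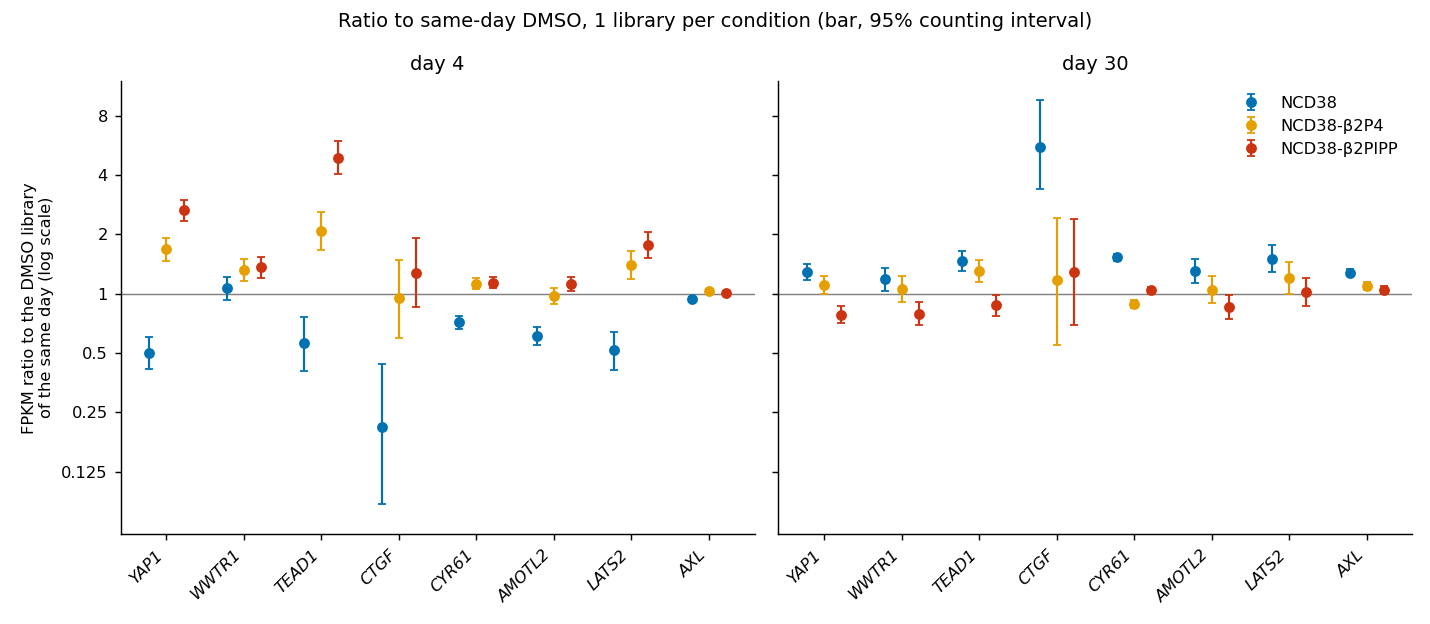
Ratio of FPKM to that of same-day DMSO (y axis, log scale) for the 8 expressed genes (x axis) and each of the 3 inhibitors, on day 4 (left) and day 30 (right). Bars are 95% counting intervals, with 1 library per condition. CTGF under NCD38 lies at 5.56 on day 30 and 0.210 on day 4, and TEAD1 under NCD38-β2PIPP at 4.89 on day 4.

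The ratios also moved with the GC content of the transcripts. Transcripts of WWTR1, TEAD1 and YAP1 have a GC content of 42.2%, 43.0% and 43.5%, while those of CYR61, CTGF, LATS2, AXL and AMOTL2 range from 50.5% to 56.3%. Across expressed genes with a GC value, the Spearman correlation of the log2 ratio to DMSO with GC content was 0.61 for NCD38 on day 4 and -0.71 for NCD38-β2PIPP on day 4, a description across genes, which are not independent replicates. For NCD38-β2P4 it was -0.53 on day 30 and -0.55 on day 4, and on day 30 it was -0.18 for NCD38 and -0.03 for NCD38-β2PIPP. The median log2 ratio in the fifth of genes with the lowest GC content was -0.35 under NCD38 and 0.78 under NCD38-β2PIPP on day 4.

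When this trend was subtracted from every library, the log2 ratio under NCD38-β2PIPP on day 4 became 0.56 for YAP1 and 0.81 for TEAD1, and no member remained past 2-fold in that comparison. Under NCD38 on day 4, YAP1 went from -0.75 to -0.13 and TEAD1 from -0.32 to 0.29. CTGF went from -0.83 to -0.56, LATS2 from -0.65 to -0.38 and AMOTL2 from -0.65 to -0.69, while CYR61 went from -0.47 to -0.12 and AXL from -0.09 to 0.04. WWTR1 went the other way from DMSO, from 0.08 to 0.60. On day 30, CTGF was nearly the same at 1.24 and CYR61 at 0.58. Higher on day 30 and lower on day 4 was then the pattern of 5 of 8 members (YAP1, CTGF, CYR61, AMOTL2 and LATS2) and of 28% of the 9848 genes with a GC value. The part of the GC trend in the levels as deposited was not tested.

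**Figure D2:**
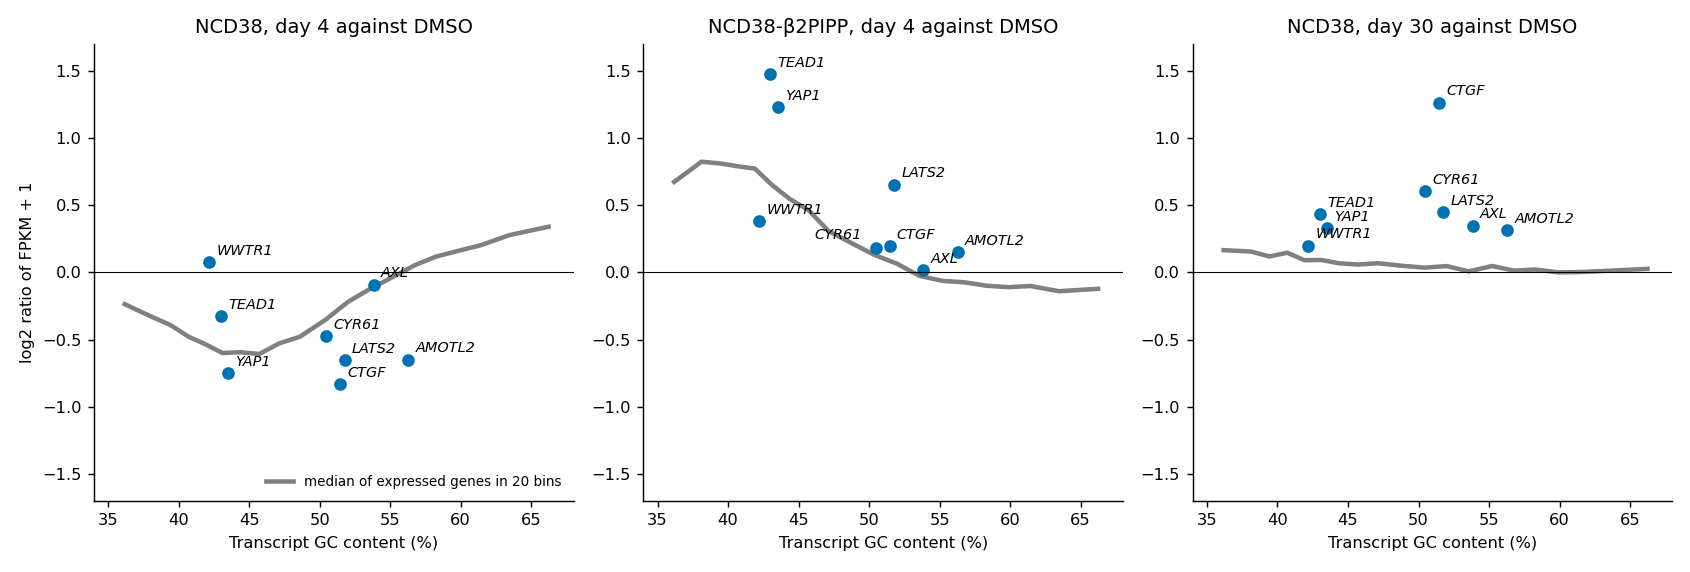
log2 ratio of FPKM + 1 to same-day DMSO (y axis) against transcript GC content in percent (x axis) for the 8 expressed genes (points), with the median of expressed genes in 20 bins of GC content as a line, for NCD38 on day 4 (left), NCD38-β2PIPP on day 4 (middle) and NCD38 on day 30 (right). On day 4 the line falls with GC content for NCD38-β2PIPP and lies lowest at intermediate to low GC content for NCD38. CTGF under NCD38 on day 30 (1.26) stands above a nearly flat line.

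The levels of day 30 and day 4 were then compared over the 4 treatments, each of which has 1 library on each day, with limma on log2(FPKM + 1) and Benjamini-Hochberg adjustment over 10865 genes. In this contrast 30.2% of all genes were called higher and 31.7% lower on day 30, at an adjusted p under 0.05. Of the 8 expressed members, 1 was called higher and 2 lower, and the median difference was -0.09, against -0.02 for all genes. CYR61 was higher on day 30, with a mean of 110 ± 28.1 FPKM (SD over 4 treatments) against 51.5 ± 10.2 and a log2 difference of 1.08 (SE 0.25, adjusted p = 0.0136). AXL fell to 49.7 ± 5.53 from 198 ± 7.62, a log2 difference of -1.98 (SE 0.12, adjusted p = 0.000399). AMOTL2 was also lower, at 4.46 ± 0.784 against 11.9 ± 2.82, with a log2 difference of -1.22 (SE 0.24, adjusted p = 0.00761). CYR61 and AMOTL2, both targets of the co-activators, were thus called in opposite directions.

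The remaining 5 expressed members did not pass the test, with log2 differences of 0.81 for TEAD1 (95% confidence interval, -0.17 to 1.78), 0.54 for YAP1 (-0.52 to 1.6), -0.07 for LATS2 (-0.83 to 0.69), -0.10 for CTGF (-1.12 to 0.91) and -0.42 for WWTR1 (-0.88 to 0.05). The ranges of the days did not overlap for CYR61, higher on day 30, and for AXL, AMOTL2 and WWTR1, lower on day 30, and 29.5% and 33.1% of expressed genes separated in these directions. AMOTL1, tested without a filter on low values, was higher on day 30, with a log2 difference of 0.12 that the added 1 makes small (adjusted p = 0.0204, limma). In that fit 23.7% of 17976 genes were called higher. With DMSO alone, AXL on day 30 was 0.226 times its level on day 4 (0.218 to 0.234), AMOTL2 0.331 times (0.293 to 0.372), CTGF 0.357 times (0.200 to 0.619) and CYR61 1.91 times (1.81 to 2.02).

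The day difference also followed GC content, with a Spearman correlation of -0.70 across genes and a median of 1.35 in the fifth of lowest GC content and -0.74 in the fifth of highest. With the trend subtracted, CYR61 (1.39, adjusted p = 0.000358) and AXL (-1.37, adjusted p = 5.89e-05) were called again by limma, and WWTR1 was called lower on day 30 (-1.38, adjusted p = 0.000136). AMOTL2 was not called, at -0.50 (adjusted p = 0.0769, limma). In that fit 29.8% of 9848 genes were called higher and 29.2% lower. Without either DMSO library AXL was the 1 member called, where 22.1% of genes were called lower on leaving out the DMSO library of day 30. Days and any difference in library preparation or in culture density between them cannot be told apart, nor can a change in RNA per cell and in the share of cells that express a gene.

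**Figure D3:**
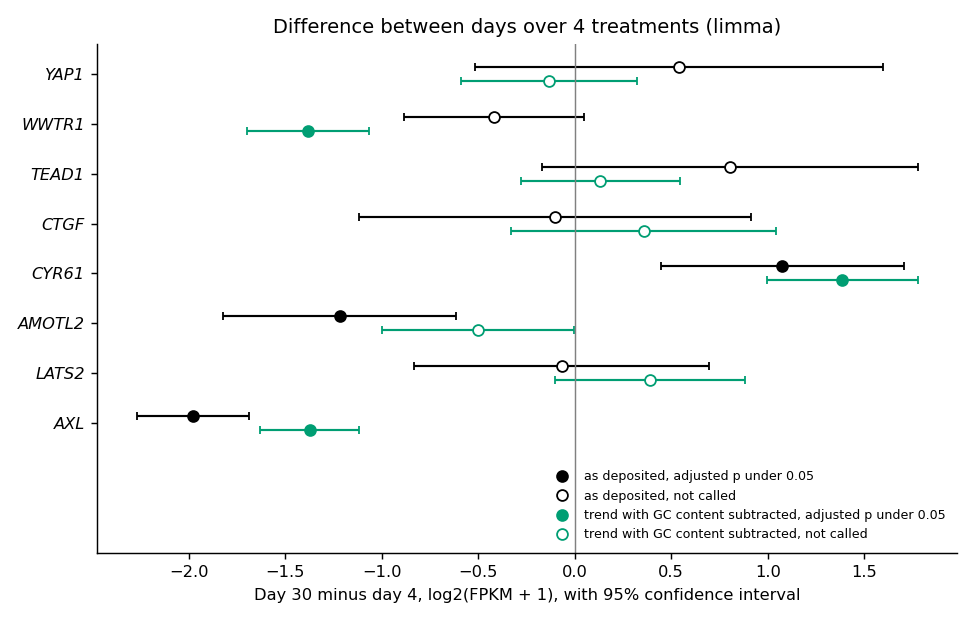
Day 30 minus day 4 in log2(FPKM + 1) over the 4 treatments (x axis), with 95% confidence intervals from limma, for the 8 expressed genes (y axis), as deposited (black) and with the trend with GC content subtracted (green). Filled points have an adjusted p under 0.05. CYR61 and AXL are filled in both fits, AMOTL2 (-1.22) in the first alone and WWTR1 (-1.38) in the second alone.

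Over both days together, no member was called between an inhibitor and DMSO. In this fit an effect that differs between the days counts as spread, so it cannot show an effect of 1 day. For the mean of the 3 inhibitors 0.0276% of all genes were called, for NCD38 0.0368%, for NCD38-β2P4 0.0184% and for NCD38-β2PIPP 0.0184%. None of the 8 members had an unadjusted p under 0.05 in any of these contrasts by limma, against 32 to 145 of all genes. The CTGF difference between NCD38 and DMSO was 0.22 on the log2(FPKM + 1) scale, with a 95% confidence interval from -1.22 to 1.65 that holds its opposite values on the days. For AXL, the most even member, the interval was -0.28 to 0.54.

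The compounds were compared with each other at the same labelled dose and days, in 3 pairs. No member was called in any pair, where 0.0092% of genes were called between NCD38-β2P4 and NCD38, 0.0184% between NCD38-β2PIPP and NCD38 and 0.0276% between the conjugates. YAP1 was 0.67 log2 units above its NCD38 level under NCD38-β2PIPP (95% confidence interval, -0.83 to 2.17, adjusted p = 0.564, limma) and 0.59 above it under NCD38-β2P4 (-0.90 to 2.09, adjusted p = 0.718, limma). For TEAD1 these differences were 0.61 (-0.76 to 1.99) and 0.38 (-0.99 to 1.76). After subtraction of the GC trend, those of YAP1 were 0.09 and 0.10 and those of TEAD1 0.03 and -0.11. WWTR1 then had the difference of greatest size among members, -0.67 between NCD38-β2PIPP and NCD38 (-1.12 to -0.23, unadjusted p = 0.0085, adjusted p = 0.705, limma), against -0.08 as deposited. For CTGF the intervals were -1.49 to 1.38, -1.63 to 1.24 and, between the conjugates, -1.57 to 1.30. Differences of more than 2-fold lie within the intervals of YAP1 and CTGF, so the data do not show that the compounds act alike on these genes. For AXL the intervals were narrower, from -0.50 to 0.32 between NCD38-β2PIPP and NCD38. On single days the levels side by side were 2.47, 0.522 and 0.568 FPKM of CTGF on day 30 for NCD38 alone, the P4 conjugate and the PIPP conjugate, and 0.261, 1.19 and 1.57 on day 4.

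Wider lists of the pathway and of programmes that respond to density or to the cytoskeleton were described in the same way. The first lists share expressed genes with the members. The target signature holds CTGF, CYR61, AXL, LATS2 and AMOTL2, the Hippo list LATS2 and AMOTL2, and the transcription partners YAP1, WWTR1 and TEAD1. Counts of these lists therefore repeat values given above and are not independent of them. Of a 22-gene signature of YAP and TAZ targets, 13 were expressed, of which 3 were called higher on day 30 and 2 lower, including CYR61, AXL and AMOTL2, against 30.2% and 31.7% of all genes. After subtraction of the GC trend, 4 were called higher and 3 lower, against 29.8% and 29.2%. GADD45A, a growth arrest gene of that signature, was at 70.5 ± 4.78 FPKM on day 30 and 13.6 ± 5.93 on day 4 (log2 difference 2.39, adjusted p = 0.00134, limma). Under NCD38, 12 of the 13 were higher than DMSO on day 30 and 11 lower on day 4, with medians of 0.30 and -0.59 against 0.06 and -0.21 for all expressed genes. With the GC trend subtracted, the medians were 0.23 and -0.22.

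Of 18 expressed Hippo kinases and upstream regulators, 4 were called higher and 3 lower on day 30 (30.2% and 31.7% of all genes). After the GC step these counts were 2 and 4 (29.8% and 29.2% of all genes). STK3, the MST2 kinase, was at 5.79 ± 0.696 FPKM on day 30 and 1.7 ± 1.05 on day 4, and its difference went from 1.40 to -0.04 with the GC trend subtracted. SAV1, the scaffold of that kinase, was at 11.4 ± 0.724 and 4.38 ± 2.31, and its difference went from 1.31 to 0.34. It was still called higher (adjusted p = 0.0348, limma). TAOK1 went from 1.34 to 0.22 and was then not called. TAOK2 was called lower in both fits (-1.23 and -0.53), at 8.25 ± 1.42 against 20.6 ± 1.23 FPKM. Under NCD38 on day 4, 17 of the 18 were lower than DMSO (67.3% of all expressed genes), with a median of -0.58, or -0.17 with the GC trend subtracted. Higher on day 30 and lower on day 4 was the pattern of 15 of the 18 (43.7% of all expressed genes), and of 11 after the GC step (28%). Among 7 expressed transcription partners none was called higher and 3 were called lower on day 30, which were the other TEAD genes: TEAD4 (19.7 ± 2.75 against 53.9 ± 9.86 FPKM), TEAD2 (8.66 ± 0.142 against 22.3 ± 3.43) and TEAD3 (11.6 ± 1.81 against 22 ± 0.450). Of all genes 31.7% were called lower. After the GC step TEAD3 was not called (-0.88 became -0.10, adjusted p = 0.532, limma). TEAD4 (-1.40 became -0.62) and TEAD2 (-1.26 became -0.55) were called again. With WWTR1, 3 of the 7 were then called lower, against 29.2% of all genes. TEAD4 was the most abundant TEAD gene per transcript length on both days and TEAD1 the least.

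SRF and MRTF targets, genes of the actin cytoskeleton, showed 1 called higher and 6 called lower on day 30 among 13 expressed (30.2% and 31.7% of all genes). After the GC step, 5 were called higher and 5 lower (29.8% and 29.2% of all genes). ACTB, β-actin, fell from 3128 ± 362 to 730 ± 301 FPKM, and FLNA, which crosslinks actin filaments, from 326 ± 22.2 to 47.4 ± 21.5, while TPM2, a tropomyosin, rose from 3.0 ± 1.14 to 20.2 ± 5.57. On day 30 under NCD38, ACTB was at 1160 FPKM against 606 with DMSO, and FLNA at 79.2 against 40.7. On day 4, ACTB was at 3552 against 3115 and FLNA at 358 against 326. Under NCD38, 10 of the 13 were higher than DMSO on day 30 (59.0% of all expressed genes). On day 4, 7 of the 13 were lower (67.3%). Of 16 expressed immediate early genes, 1 was called higher and 7 lower on day 30 (30.2% and 31.7% of all genes), with a median difference of -0.54. After the GC step the balance turned over, with 6 called higher and 3 lower (29.8% and 29.2% of all genes). Their median difference was then 0.09. All 16 were higher under NCD38 than with DMSO on day 30 (59.0% of all expressed genes), with a median of 0.39, or 0.33 with the GC trend subtracted. On day 4, 12 of the 16 were lower (67.3%), with a median of -0.34 with or without the GC step. Higher on day 30 and lower on day 4 was thus the pattern of 12 of these genes (43.7% of all expressed genes), and of 13 after the GC step (28%). EGR1, a serum-responsive factor, was at 40.8 FPKM under NCD38 and 18.8 with DMSO on day 30 and at 58.9 and 95.1 on day 4. Of 11 expressed hypoxia genes, 5 were called higher and 3 lower on day 30 (30.2% and 31.7% of all genes), with a median difference of 0.71. After the GC step, which 10 of them could enter, 4 were called higher and 4 lower (29.8% and 29.2% of all genes). The median difference was then -0.13. Their median under NCD38 was 0.12 on day 30 and -0.49 on day 4, or 0.05 and -0.05 after the GC step.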

How the data were processed

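RNA-seq of RKO cells was analysed in 8 libraries. Stranded mRNA libraries were made with a TruSeq kit. The paper names TopHat for alignment and Cufflinks for transcript assembly, whereas the submitters' processing notes list HISAT2 2.2.1.0 and Cufflinks. These sources do not settle which aligner gave the deposited FPKM. The notes also list BWA 0.5.9, bedtools 2.20.1 and hg19. The annotation is not given in the sources used here. ChIP-seq was not analysed here.

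Of 25594 entries, 90 with a repeated name were left out. Genes with a mean FPKM of at least 1 were called expressed. limma 3.58.1 (R 4.3.3, trend) was fitted to log2(FPKM + 1) with treatment and day as terms, which left 3 residual degrees of freedom, and a gene was called at a Benjamini-Hochberg adjusted p under 0.05 over all genes tested. No condition has a replicate, so the residual is the day-by-treatment spread. Day p-values therefore measure how even the day difference was across the 4 treatments. In the inhibitor and compound contrasts, effects that differ between the 2 days enter the residual. Ratios between single libraries had no test, and 2-fold means a log2 ratio of FPKM + 1 of at least 1. Python 3.11.15 with pandas 2.3.3, numpy 2.4.6 and scipy 1.17.1 was used.

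Depth was estimated from the pile-up of FPKM times length at 1 fragment, with canonical transcripts of GENCODE release 44 on GRCh37 of over 1500 nt, and gave exact conditional intervals of ratios. The GC trend was the median, in 20 bins of transcript GC content, of each library's deviation from the mean library, over the 9848 expressed genes with a GC value (90.6%). The fit, the intervals, the depth estimate and the GC step were tested on simulated data.

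Members and lists were chosen with earlier results of these data known. One gene of the marker lists is not reported here. Named from the other lists were called members, at most the 4 with the largest difference, and the 3 genes most like CTGF and CYR61. EGR1, ACTB and FLNA come from that rule, and AURKA from the likeness. The alternatives were a pseudocount of 0.1, a filter of 0.1 or none, rescaling by the median ratio, no treatment block, leaving out each library, the DMSO library of the other day and the GC subtraction.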

Additional observations from a re-analysis of the deposited data

Results flagged for a closer look

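Several members lay on opposite sides of same-day DMSO on day 30 and day 4, with counting intervals that excluded 1 on both days. With 1 library per condition, the difference between days was not tested. On the log2(FPKM + 1) scale, the NCD38 ratio of day 30 minus that of day 4 was 2.09 for CTGF, 1.1 for LATS2, 1.08 for YAP1, 1.08 for CYR61, 0.96 for AMOTL2, 0.76 for TEAD1 and 0.44 for AXL. With the GC trend subtracted, TEAD1 was higher with NCD38 on both days (0.32 and 0.29) and so was AXL (0.36 and 0.04). For NCD38-β2PIPP the direction was the opposite, with -1.61 for TEAD1, -1.54 for YAP1, -0.65 for WWTR1 and -0.33 for AMOTL2. With the GC trend subtracted, WWTR1 was lower with NCD38-β2PIPP on both days (-0.27 and -0.37). For NCD38-β2P4, CYR61 gave -0.34.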

How the results depend on the processing

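Over the 15 alternative settings, 807 of 926 values stayed on the same side of their threshold, within 1.5 times for a count, or within counting error. The other 119 did not, and 7 of these reversed. The values are not independent, because several settings leave the estimate of a gene unchanged. These are the filters, the fit without the treatment block for the day difference, and leaving out a library of a compound outside the contrast. Leaving out either library of a treatment gives the same day difference. All 7 reversals came from the ratio to the DMSO library of the other day, which adds the difference between days. In it, NCD38 on day 30 gave -1.09 for AMOTL2 and -1.77 for AXL, NCD38-β2P4 on day 30 gave -1.35 and -2.0, NCD38-β2PIPP on day 30 gave -2.06 for AXL, NCD38 on day 4 gave 2.03 for AXL and NCD38-β2P4 on day 4 gave 1.36 for AMOTL2. Members past 2-fold were then 5 for NCD38, 3 for the P4 conjugate and 2 for the PIPP conjugate on day 30. On day 4 they were 4 for NCD38 and 2 for the P4 conjugate. Between the 2 DMSO libraries alone, 2614 of 10865 expressed genes were 2-fold higher on day 30 and 1881 were 2-fold lower. Of the 8 members, 1 was 2-fold higher and 2 were lower there. These counts therefore hold the general difference between days. A pseudocount of 0.1 put 1 member past 2-fold for NCD38 on day 4, and the GC subtraction left 0 for NCD38-β2PIPP on day 4.

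In the day contrast, 1 to 4 members were called when 1 library was left out, while the calls among all 10865 genes ranged from 4567 to 7108. AXL was called in each of these fits, and CTGF was added without either NCD38 library and TEAD1 without either NCD38-β2PIPP library. AMOTL2 and CYR61 were lost without either DMSO library. The calls among all genes fell there too, from 6722 to 4586 without that of day 30 and to 4567 without that of day 4. A treatment that has lost 1 library carries no day difference, so these fits rest on 3 treatments. WWTR1 was called with rescaling (-0.44), without the treatment block (-0.42) and with the GC subtraction. The cause was not tested. The day contrast is paired by treatment through the treatment term, and without that block WWTR1 was the 1 member added and none was lost. No paired analysis by replicate number was possible because the labels give none.

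No member was called for an inhibitor or a compound pair under any alternative run. The genes called for the mean of the inhibitors, 3 of all, became 5 with rescaling and 0 to 24 without 1 library. For NCD38 they ranged from 0 to 21 without 1 library, for NCD38-β2P4 from 0 to 20 and for NCD38-β2PIPP from 0 to 27. A pseudocount of 0.1 gave 4 genes for NCD38-β2P4, 1 for NCD38-β2PIPP and 2 for NCD38-β2P4 against NCD38. With the GC subtraction 0 genes were called in each of the 7 contrasts. Few estimated fragments, as for ANKRD1, AMOTL1 on day 4 and CTGF under NCD38 on day 4, limit those ratios.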
